A study of Mus musculus with 12 samples.

Results

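The genes described here are 10 imprinted genes with roles in growth: *H19*, *Igf2*, *Dlk1*, *Meg3*, *Plagl1*, *Cdkn1c*, *Mest*, *Peg3*, *Grb10* and *Ndn*. All 10 were found by symbol in a table of 54352 genes, and the group was chosen by a difference already seen in *H19* between the 2 aortic sites in control libraries. That control difference is therefore described here and not tested, for *H19* and for the other members. The libraries were bulk RNA-seq of cultured adventitial fibroblasts of wild-type C57Bl/6 mice, taken from the ascending or the descending aorta and treated for 48 h with solute (control) or with TGFβ at 10 ng/mL. Each of the 4 groups, ascending control, ascending TGFβ, descending control and descending TGFβ, held 3 libraries, 12 in all. The labels give an age of 14 weeks and 1 batch for every library, whereas the study's text gives more than 1 age and passage number for these cultures. No label says that the replicates came from separate animals, so the p-values below measure only the spread between these libraries.

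Imprinted genes are expressed mainly from the copy inherited from 1 parent, set by methylation marks laid down in the germ line, and many of them lie in clusters that share a control region. Among the members, *H19*, *Meg3*, *Cdkn1c* and *Grb10* are as a rule expressed from the maternal copy and *Igf2*, *Dlk1*, *Plagl1*, *Mest*, *Peg3* and *Ndn* from the paternal copy. Several are abundant in fetal mesenchyme and decline after birth. The counts here do not separate the parental copies, so imprinting itself was not measured.

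Total counts ran from 16250126 to 23892943 per library, and 3 counts, taken as the floor, corresponded to 0.117 to 0.207 CPM (counts scaled to a common library size). Levels below are CPM scaled by the trimmed mean of M values (TMM). Descending control replicate 3 stood apart from all other libraries: 13031 genes had a count in it, against 19337 to 20931 in the other 11, and mitochondrial genes took 11.02% of its counts, against 0.703% to 1.03%. Calls and fold changes that rest on descending control are given with and without that library. Fibroblast markers summed to between 13734 and 25340 CPM in every library, and each of the 6 was above the floor. Of 6 skeletal muscle and myoblast markers, 5 were at or under the floor in all groups. With the sixth, *Acta1*, the list summed to 4.28 to 6.94 CPM in control and 55.0 to 72.3 CPM in TGFβ libraries of descending fibroblasts, and to 0.633 to 1.65 CPM and 19.3 to 22.9 CPM in ascending fibroblasts. Smooth muscle markers summed to 2435 to 2516 CPM in control and 7894 to 8318 CPM in TGFβ libraries of descending fibroblasts, and to 1537 to 1654 CPM and 5052 to 5147 CPM in those of ascending fibroblasts. They were thus higher with TGFβ and higher in descending fibroblasts, without overlap. Endothelial markers, 5 in number, summed to 23.9 to 26.8 CPM in control and 9.49 to 11.2 CPM in TGFβ libraries of descending fibroblasts, and to 24.4 to 27.9 CPM and 4.70 to 5.72 CPM in ascending fibroblasts. *Cdh5* was at or under the floor in every group but descending control, and *Pecam1* in ascending TGFβ libraries. In descending control replicate 3 taken alone, *Pecam1*, *Cdh5*, *Kdr* and *Vwf* were at or under the floor. Of 4 adipocyte markers the sum was 75.5 to 109 CPM in control and 25.0 to 45.0 CPM in TGFβ libraries of descending fibroblasts. In ascending fibroblasts it was 4.08 to 14.6 CPM in control and 2.19 to 2.60 CPM with TGFβ, where *Plin1* and *Cidec* were at or under the floor. Other marker lists also moved with site or treatment. In TGFβ libraries 3 cartilage markers summed to 644 to 733 CPM in descending and 282 to 313 CPM in ascending fibroblasts, 4 mesothelial markers to 12.2 to 13.9 and 19.6 to 26.5 CPM, and 3 Schwann cell markers to 0.596 to 0.898 and 4.68 to 7.01 CPM. Macrophage markers reached 340.6 CPM in 1 ascending control library and at most 44.9 CPM outside that group. The part of these cells in the results below was not tested. In bulk RNA, fewer cells of a type and less RNA per cell cannot be told apart.

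*H19* is a long noncoding RNA at chr7:142575529-142578143 on the minus strand of GRCm38, next to *Igf2*, and 1 of its exons holds the hairpin of miR-675. *H19* was high in descending control and low in the 3 other groups. It measured 30.8, 34.0 and 32.1 CPM in the descending control libraries and 3.08, 3.40 and 2.77 CPM in the ascending control libraries, a fold of 10.4 (log2 difference of −3.38 ± 0.16, SE; −3.38 without descending control replicate 3). With TGFβ it measured 2.19, 1.41 and 1.09 CPM in descending and 0.261, 1.09 and 0.633 CPM in ascending fibroblasts. The groups thus ordered as descending control (32.3 ± 1.65, SD, n = 3), ascending control (3.09 ± 0.310), descending TGFβ (1.56 ± 0.569) and ascending TGFβ (0.661 ± 0.414), and only the last pair of neighbours overlapped. Descending control replicate 3, at 32.1 CPM from 465 counts, lay between its 2 group mates on the CPM scale.

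Under TGFβ the level of *H19* was 20.7-fold lower than in control in descending fibroblasts (log2 difference −4.37 ± 0.30, SE; −4.37 ± 0.15 without descending control replicate 3) and 4.59-fold lower in ascending fibroblasts (−2.20 ± 0.33; −2.76 without ascending TGFβ replicate 2). The difference between these responses was 2.17 ± 0.52 on the log2 scale, 2.18 without descending control replicate 3 and 1.60 without ascending TGFβ replicate 2. These values use the control libraries on which *H19* was chosen, and so carry no test. The summed adipocyte markers were highest in descending control and lowest in ascending TGFβ, as *H19* was. The highest sum, 109 CPM, was that of descending control replicate 3. The middle groups went the other way. The markers were higher in descending TGFβ (25.0 to 45.0 CPM) than in ascending control (4.08 to 14.6 CPM), whereas *H19* was lower (1.56 against 3.09 CPM). The part of these cells in the levels of *H19* was not tested.

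The TGFβ libraries were not used to choose *H19*, and there the site difference could be tested. *H19* was 2.31-fold lower in ascending than in descending fibroblasts (log2 fold change −1.21 ± 0.39, SE, adjusted p = 0.0145, quasi-likelihood test of edgeR, adjusted by Benjamini-Hochberg over all genes tested). The call rested on 5 to 43 counts per library and the ranges overlapped. The adjusted p was 0.138 (log2 fold change −0.88) without descending TGFβ replicate 1, 0.106 (−0.85) without ascending TGFβ replicate 1 and 0.0578 with DESeq2, over a range of 0.00255 to 0.138 across 13 alternatives.

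The mature strands of miR-675 and miR-770 are shown because their hairpins lie in exons of *H19* and *Meg3*, the members measured as long noncoding RNAs. Capitals mark the seed (bases 2 to 8), and the sequences are those of RefSeq, placed on GRCm38.p6.
miR-675-5p: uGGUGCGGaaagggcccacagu
miR-675-3p: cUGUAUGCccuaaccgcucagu
miR-770-5p: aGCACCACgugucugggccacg
miR-770-3p: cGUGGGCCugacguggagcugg
The miR-675 strands lie at chr7:142577112-142577133 and chr7:142577078-142577099, and those of miR-770 at chr12:109563710-109563731 and chr12:109563744-109563765. Each of these seeds belonged to 1 mature microRNA in the table. The row of *Mir675* held 0 counts in all 12 libraries, and small RNAs were not measured, so the level of the mature strands is not given here.

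*Igf2*, the paternally expressed fetal growth factor beside *H19* (chr7:142650766-142666816), held 2, 0 and 0 counts in descending control and 0, 0 and 2 in descending TGFβ libraries. The ascending control libraries held 4, 0 and 0 and each ascending TGFβ library held 0. It passed the filter on low counts in no comparison. In the annotation 62.8% of its exon bases are shared on the same strand with the gene model *Gm49394*, whose row held 0 counts in all 12 libraries. Reads over shared exons may have been given to neither gene, since how such reads were counted is not stated, and the level of *Igf2* cannot be read from this table.

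**Figure D1:**
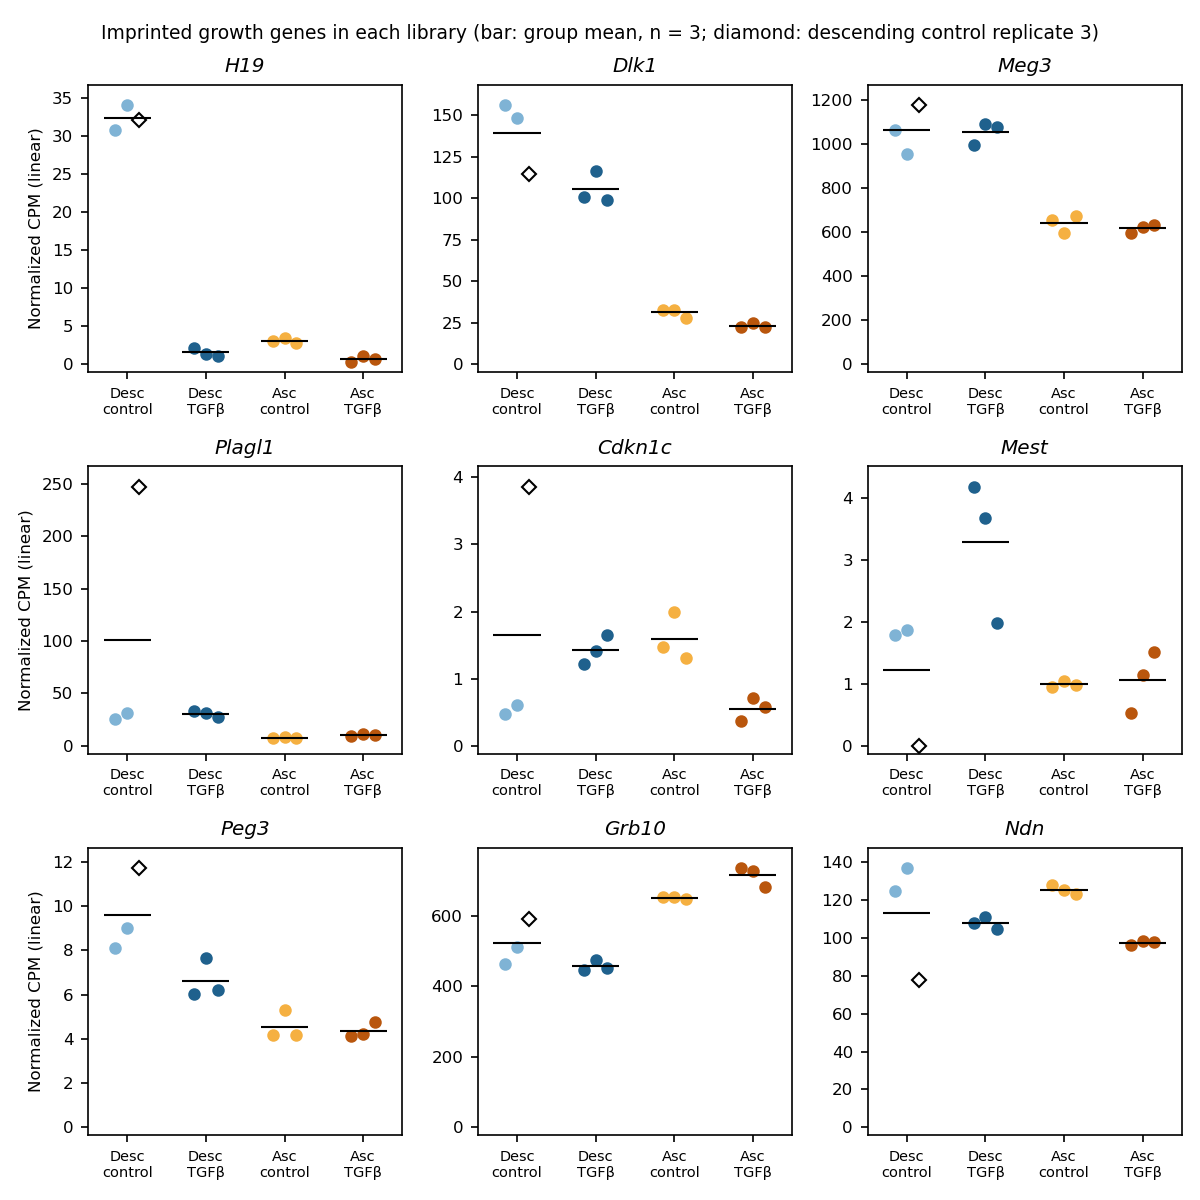
Level of each of the 9 members with readable counts in every library (y axis: TMM-normalized CPM, linear from 0; x axis: the 4 groups; points: libraries; bars: group means of 3 libraries; open diamonds: descending control replicate 3). *H19* lies between 30.8 and 34.0 CPM in descending control and at or under 3.40 CPM elsewhere, while descending control replicate 3 stands far from its group mates for *Plagl1*, *Cdkn1c* and *Mest*.

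Between sites within the TGFβ libraries, 9 members passed the filter on low counts and 9 were called. Ascending fibroblasts had lower levels of 8 (*H19*, *Dlk1*, *Meg3*, *Plagl1*, *Cdkn1c*, *Mest*, *Peg3* and *Ndn*) and a higher level of 1 (*Grb10*), where 36.3% of 13678 genes tested were called, 18.1% higher and 18.2% lower. The median log2 fold change of the members was −1.21, against 0.00 over all genes tested. The members were proposed with results of these data known, so these counts are a description of the list. A fit of all 12 libraries, which share 1 estimate of the spread, called 3 of the 9 and 7.56% of all genes, and the same fit without descending control replicate 3 called 9 and 32.9% of all genes. By parental copy, 5 of 5 paternally expressed members with a test were lower, and of the 4 maternally expressed members 3 were lower and 1 higher. With *H19* as the exception, the ascending and descending TGFβ ranges of these members did not overlap. The share of all genes without overlap was not counted for this comparison, so nothing is read from these ranges. In the control libraries, 5 members lay wholly lower and 1 wholly higher in ascending fibroblasts, where 35.3% of all genes did not overlap. Without descending control replicate 3 it was 6 lower and 2 higher, against 54.4% of genes; nothing is read from the control counts, which the choice of members used.

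*Dlk1* encodes a transmembrane protein with EGF-like repeats that restrains adipocyte differentiation, and it had the largest site difference of the tested members by log2 fold change. In TGFβ libraries it measured 101, 117 and 98.8 CPM in descending and 22.3, 24.8 and 22.6 CPM in ascending fibroblasts. The groups lay far apart (log2 fold change −2.18 ± 0.06, SE, 4.52-fold lower in ascending, adjusted p = 1.83e-21). In control libraries *Dlk1* measured 156, 148 and 114 CPM in descending and 32.9, 32.9 and 27.8 CPM in ascending fibroblasts. The adipocyte and smooth muscle markers given above were also lower in ascending fibroblasts, in both conditions, and their part in this difference was not tested.

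*Meg3* is the maternally expressed long noncoding RNA of the same cluster on chromosome 12, lying downstream of *Dlk1* (chr12:109541001-109571726, against chr12:109452823-109463336, both on the plus strand). It measured 998, 1093 and 1078 CPM in descending TGFβ and 595, 624 and 632 CPM in ascending TGFβ libraries. *Meg3* was 1.71-fold lower in ascending fibroblasts (log2 fold change −0.77 ± 0.04, SE, adjusted p = 5.25e-16). Its control levels were 1066, 956 and 1177 CPM in descending and 657, 597 and 672 CPM in ascending fibroblasts. An opposite-strand gene model, *Gm26906*, covers 6.79% of its exon bases and held 0 counts in every library.

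*Rian* and *Mirg*, noncoding RNAs further along the *Dlk1*/*Meg3* cluster that host snoRNAs and microRNAs, were lower in ascending TGFβ libraries as well. *Rian* ran from 627 to 654 CPM in descending and from 400 to 426 CPM in ascending fibroblasts (log2 fold change −0.63 ± 0.04, SE, adjusted p = 2.37e-14). *Mirg* ran from 16.04 to 18.3 CPM and from 9.61 to 12.6 CPM (log2 fold change −0.66, adjusted p = 5.58e-06). *Rtl1*, whose protein derives from a retrotransposon, averaged 1.22 CPM in descending and 0.916 CPM in ascending TGFβ libraries and did not pass the test (log2 fold change −0.41, adjusted p = 0.363), nor did *Begain* (−0.36, adjusted p = 0.279). *Dlk1* and *Meg3* did not keep 1 ratio between sites. Per kb of exon, *Dlk1* stood at 0.425 ± 0.1 (SD, n = 3) of *Meg3* in control and 0.319 ± 0.024 in TGFβ libraries of descending fibroblasts. The descending control ratio was 0.481 ± 0.020 (n = 2) without replicate 3. In ascending fibroblasts the ratio was 0.156 ± 0.022 in control and 0.12 ± 0.0063 with TGFβ. The ranges of this ratio did not overlap between sites in either condition. In control the ratio of *Rian* to *Meg3* averaged 0.478 in ascending and 0.553 in descending fibroblasts (0.515 without replicate 3). With TGFβ it averaged 0.662 in ascending and 0.599 in descending fibroblasts. The ratio of *Mirg* to *Meg3* overlapped between sites with TGFβ (0.04 to 0.0495 in ascending, 0.0364 to 0.0441 in descending).

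**Figure D2:**
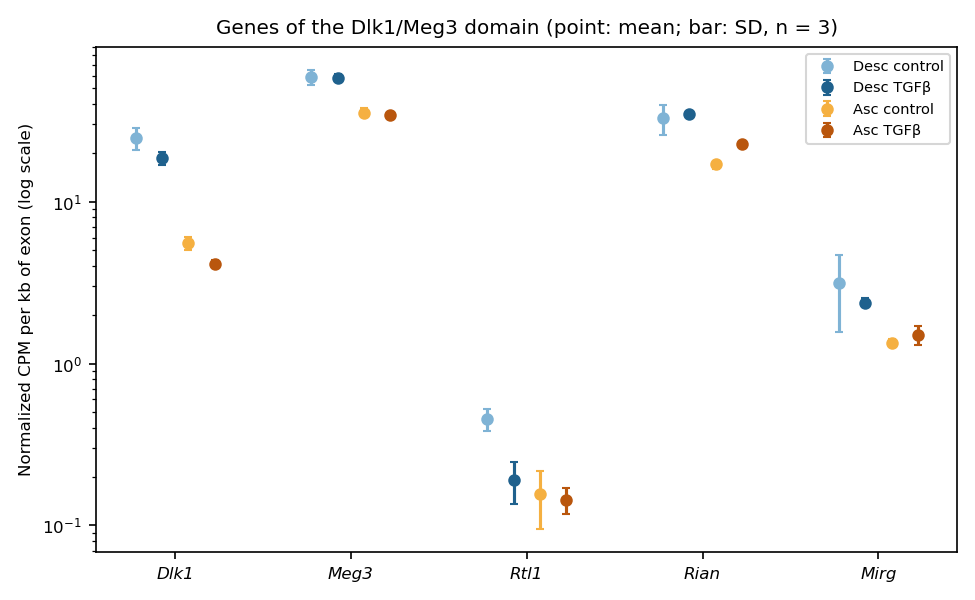
Mean level per kb of exon of 5 genes of the *Dlk1*/*Meg3* cluster (y axis: TMM-normalized CPM per kb of exon, log scale; points: group means; error bars: SD of 3 libraries; colours: the 4 groups). *Dlk1*, *Meg3*, *Rian* and *Mirg* sit lower in ascending than in descending fibroblasts in both conditions, with *Dlk1* at 4.10 to 5.52 against 18.6 to 24.7 CPM per kb.

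RefSeq gave 15 start windows for 8 of the 10 members. The window of *Dlk1* and the first of *Meg3* are shown because they lie in 1 imprinted cluster and both genes were lower in ascending fibroblasts. Each window runs from 250 bases before to 50 after the RefSeq start (GRCm38.p6, plus strand, chr12:109452573-109452872 and chr12:109540746-109541045), and capitals mark matches to CAGAC or its reverse complement GTCTG, a core of SMAD3 sites.
Dlk1: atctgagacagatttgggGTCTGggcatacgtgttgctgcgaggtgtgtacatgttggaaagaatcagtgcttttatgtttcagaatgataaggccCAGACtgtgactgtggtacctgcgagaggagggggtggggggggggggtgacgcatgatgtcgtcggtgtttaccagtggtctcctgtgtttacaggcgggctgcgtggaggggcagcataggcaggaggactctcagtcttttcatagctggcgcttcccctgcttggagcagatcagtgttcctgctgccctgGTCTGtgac
Meg3: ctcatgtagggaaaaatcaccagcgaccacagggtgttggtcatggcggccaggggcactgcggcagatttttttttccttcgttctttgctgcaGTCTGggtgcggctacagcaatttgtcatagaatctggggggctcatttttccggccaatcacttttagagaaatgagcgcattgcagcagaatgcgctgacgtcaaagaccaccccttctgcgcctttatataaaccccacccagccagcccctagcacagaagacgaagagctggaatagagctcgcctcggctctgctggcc
The *Dlk1* window held 3 matches and the *Meg3* window 1, counting both strands, and 49.6% of 32851 windows of this length hold at least 1. A match is a description of the letters and not a binding site.

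*Plagl1* encodes a zinc finger transcription factor that restrains proliferation and binds control regions of other imprinted genes. In TGFβ libraries it measured 32.8, 30.9 and 27.7 CPM in descending and 9.29, 10.8 and 10.2 CPM in ascending fibroblasts, without overlap (log2 fold change −1.59 ± 0.09, SE, adjusted p = 6.82e-15). In control the descending libraries read 25.4, 31.4 and 247 CPM and the ascending ones 7.25, 8.69 and 7.25 CPM. The value of 247 came from descending control replicate 3, and without that library the log2 difference in control was −1.87 in place of −3.71.

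*Peg3* encodes a zinc finger protein and is a paternally expressed gene of an imprinted cluster at the start of chromosome 7. It measured 6.02, 7.64 and 6.19 CPM in descending TGFβ and 4.12, 4.21 and 4.77 CPM in ascending TGFβ libraries (log2 fold change −0.59 ± 0.15, SE, adjusted p = 0.00251). Control levels were 8.13, 9.02 and 11.7 CPM in descending and 4.17, 5.29 and 4.19 CPM in ascending fibroblasts. Its start is shown because it was the 1 window among those of the members that held the Plagl1 core GGGGCCCC, a palindrome found in 354 of the 32851 windows. The window lies on the minus strand at chr7:6730370-6730669 and also held 3 matches to the SMAD3 core, with capitals marking both motifs.
Peg3: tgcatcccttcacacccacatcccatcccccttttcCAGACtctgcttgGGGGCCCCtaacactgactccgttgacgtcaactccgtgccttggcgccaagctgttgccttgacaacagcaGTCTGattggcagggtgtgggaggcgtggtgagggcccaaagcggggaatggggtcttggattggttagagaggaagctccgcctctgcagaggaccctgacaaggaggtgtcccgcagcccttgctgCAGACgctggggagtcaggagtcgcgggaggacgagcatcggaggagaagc

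*Mest*, a paternally expressed gene for a hydrolase-like protein of mesoderm, was a low-count member. It measured 4.18, 3.69 and 1.99 CPM in descending TGFβ and 0.522, 1.14 and 1.51 CPM in ascending TGFβ libraries (log2 fold change −1.61 ± 0.31, SE, adjusted p = 9.59e-05). In control it held 1.79, 1.86 and 0 CPM in descending fibroblasts, the 0 being descending control replicate 3, and 0.956, 1.05 and 0.974 CPM in ascending fibroblasts. *Copg2*, which overlaps 23.1% of the exon bases of *Mest* on the opposite strand, moved the other way between sites in TGFβ libraries (log2 fold change 0.24, adjusted p = 8.47e-04). If counting ignored strand, reads of this pair over the overlap cannot be told apart.

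*Cdkn1c* encodes p57, a cyclin-dependent kinase inhibitor that limits growth, and it held few counts, from 7 to 56 per library. In TGFβ libraries it measured 1.22, 1.41 and 1.65 CPM (24, 26 and 35 counts) in descending and 0.365, 0.709 and 0.584 CPM (7, 15 and 12 counts) in ascending fibroblasts. The ranges did not overlap (log2 fold change −1.35 ± 0.35, SE, adjusted p = 0.00287). In control the order depended on 1 library: descending control replicate 3 held 3.86 CPM against 0.467 and 0.607 in its group mates, and the ascending libraries held 1.48, 2.00 and 1.31. The log2 difference in control was −0.02 with that library and 1.58 without it. An antisense gene model, *Gm44732*, covers 30.7% of the exon bases of *Cdkn1c* and held 0 counts throughout.

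*Grb10*, which encodes an adaptor that dampens insulin and IGF1 receptor signalling, was the member higher in ascending fibroblasts. It measured 446, 475 and 452 CPM in descending TGFβ and 736, 728 and 683 CPM in ascending TGFβ libraries (log2 fold change 0.65 ± 0.04, SE, adjusted p = 2.80e-14). Control levels were 463, 513 and 591 CPM in descending and 653, 655 and 648 CPM in ascending fibroblasts, again without overlap. Per kb of exon, *Meg3* and *Grb10* were the 2 highest members in every group, with *Meg3* first in descending fibroblasts (59.0 CPM per kb in control; 55.9 without descending control replicate 3) and *Grb10* first in ascending fibroblasts (71.8 CPM per kb in control).

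*Ndn*, which encodes necdin, a MAGE family protein linked to cell cycle exit, differed least between sites in TGFβ libraries. Control levels were 125, 137 and 77.7 CPM in descending and 128, 125 and 123 CPM in ascending fibroblasts. The log2 difference in control was 0.16, or −0.05 without descending control replicate 3. With TGFβ, *Ndn* measured 108, 111 and 105 CPM in descending and 96.2, 98.4 and 97.9 CPM in ascending libraries, a 1.10-fold difference (log2 fold change −0.14 ± 0.04, SE, adjusted p = 0.00886). Other genes of its cluster on chromosome 7 were lower in ascending TGFβ libraries too: *Snrpn* (log2 fold change −0.67, adjusted p = 6.12e-09), *Snhg14* (−0.76, 3.83e-06), *Atp10a* (−0.84, 1.40e-15) and *Ube3a* (−0.16, 0.00978). *Peg12* did not pass the test (−0.29, 0.0775). *Snhg14* runs opposite to *Ube3a*, with overlapping exons, and *Snrpn* shares 26.5% of its 50-base stretches with other gene models, so counts of these 3 are uncertain.

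**Figure D3:**
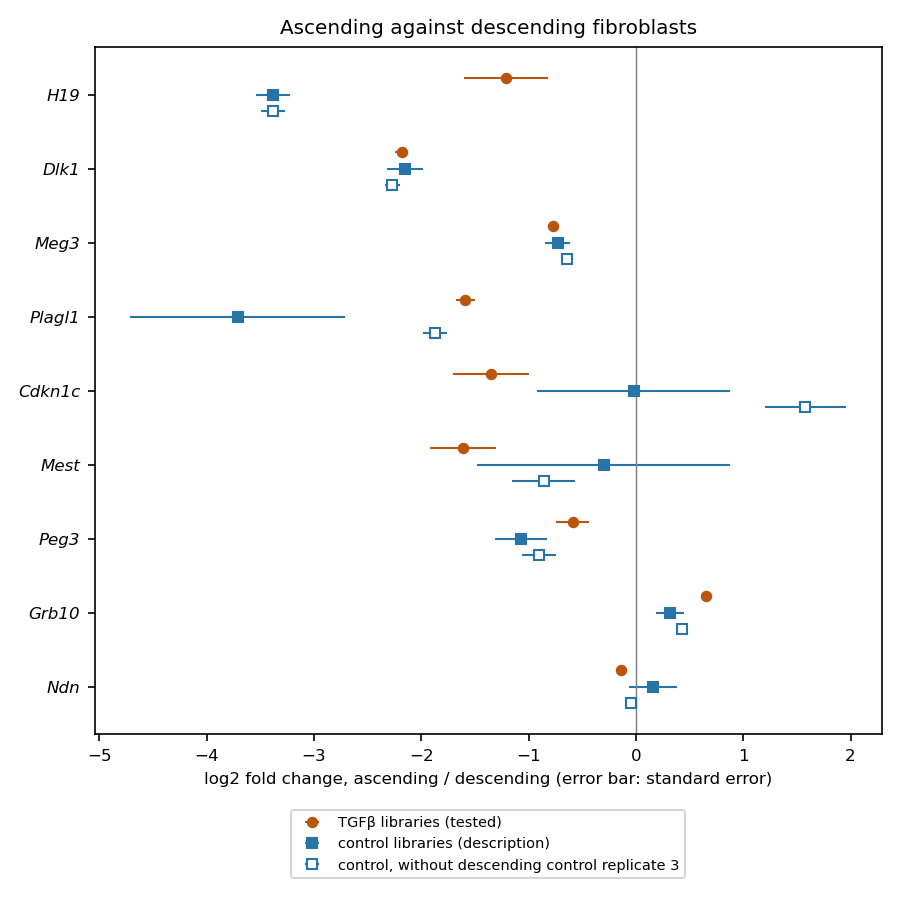
Difference between ascending and descending fibroblasts for 9 members (x axis: log2 fold change, ascending over descending, below 0 where ascending was lower; error bars: standard error of the fit; circles: TGFβ libraries, tested; squares: control libraries, not tested; open squares: without descending control replicate 3). In TGFβ libraries the values run from −2.18 for *Dlk1* to 0.65 for *Grb10*, and *Plagl1*, *Cdkn1c* and *Mest* move in control when the 1 library is left out.

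TGFβ within ascending fibroblasts changed 5 of the 8 members tested, 3 downward and 2 upward, where 55.8% of 13917 genes were called, 28.2% higher and 27.6% lower. *Cdkn1c* fell most, from 1.48, 2.00 and 1.31 CPM in control to 0.365, 0.709 and 0.584 CPM with TGFβ (log2 fold change −1.51 ± 0.34, SE, adjusted p = 0.00114). *Dlk1* fell 1.35-fold (−0.43 ± 0.07, adjusted p = 9.20e-05) and *Ndn* fell 1.29-fold, from 123 to 128 CPM down to 96.2 to 98.4 CPM (−0.37 ± 0.04, adjusted p = 2.84e-07). *Plagl1* rose 1.30-fold (0.38 ± 0.12, adjusted p = 0.0133; 0.0609 without ascending TGFβ replicate 2) and *Grb10* rose 1.09-fold (0.13 ± 0.03, adjusted p = 0.00197). *Meg3*, *Peg3* and *Mest* did not pass the test, at log2 fold changes of −0.06, −0.06 and 0.09. *Meg3* passed it without ascending control replicate 2 (−0.11, adjusted p = 0.0065). In the fit of all 12 libraries edgeR called 0 of these 8 members and 16.0% of all genes, with 1 member, *Dlk1*, under 0.05 before adjustment; DESeq2 on the 6 libraries called 5. With descending control replicate 3 left out of the joint fit, 5 members and 52.5% of all genes were called. The summed smooth muscle markers given above were higher, and the endothelial markers lower, in TGFβ than in control libraries at both sites, and their part in the responses of the members was not tested.

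TGFβ within descending fibroblasts gave 0 calls among 8 members when all 6 libraries were used, where 8.07% of 13825 genes were called. Before adjustment 1 member, *Dlk1*, was under 0.05 in edgeR's quasi-likelihood test, and DESeq2 called 0 of them. Without descending control replicate 3, 5 of the 8 were called, where 52.9% of 14311 genes were called, 26.6% higher and 26.3% lower. On those 5 libraries *Dlk1* fell 1.44-fold (log2 fold change −0.53 ± 0.06, SE, adjusted p = 1.06e-08), *Ndn* fell 1.21-fold (−0.27, adjusted p = 9.59e-05) and *Peg3* fell 1.30-fold (−0.37, adjusted p = 0.0296). *Cdkn1c* rose 2.67-fold (1.42 ± 0.39, adjusted p = 0.00313) and *Mest* rose 1.79-fold (0.84 ± 0.27, adjusted p = 0.0107). *Meg3*, *Plagl1* and *Grb10* did not pass the test, at 0.07, 0.11 and −0.09. A joint fit with the ascending libraries called 1 member and 24.4% of all genes with all 12 libraries, and 5 members and 51.3% of all genes without descending control replicate 3. The low depth of *Cdkn1c*, with 12 and 14 counts in the 2 control libraries kept, limits its value.

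**Figure D4:**
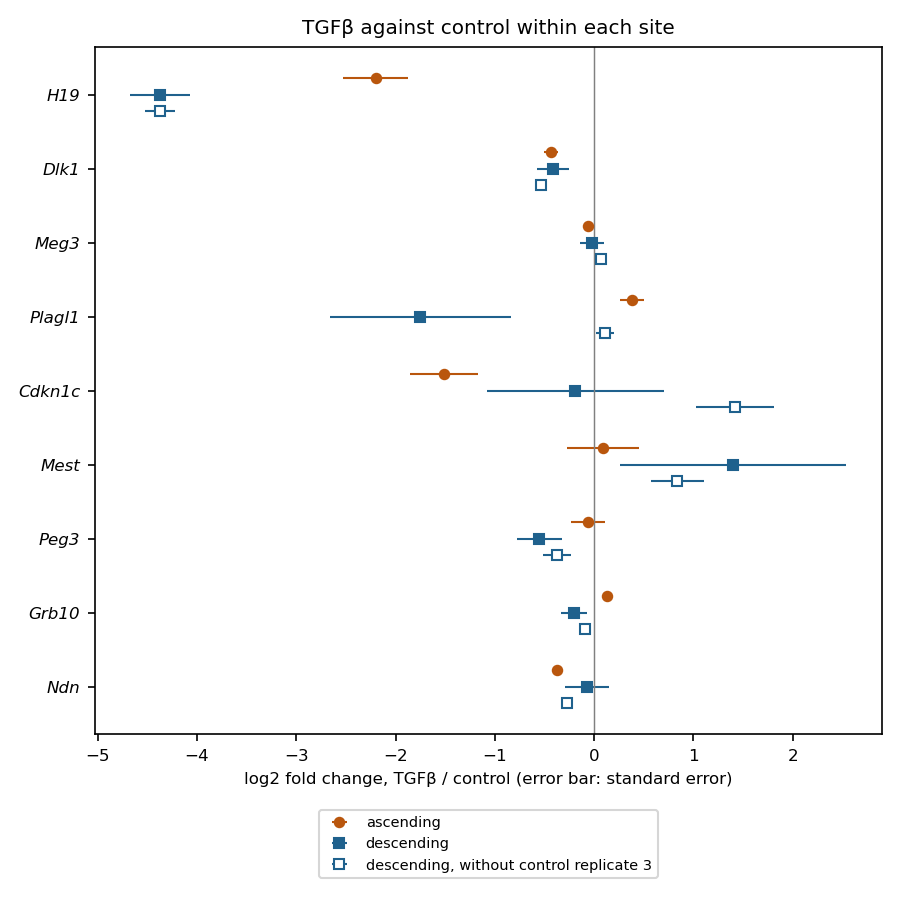
Difference between TGFβ and control within each site for 9 members (x axis: log2 fold change, TGFβ over control; error bars: standard error of the fit; circles: ascending; squares: descending; open squares: descending without control replicate 3). *H19*, which carries no test here, lies at −2.20 in ascending and −4.37 in descending fibroblasts, and *Cdkn1c* lies at −1.51 in ascending fibroblasts and at −0.19 or 1.42 in descending fibroblasts with or without the 1 library.

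Whether the response to TGFβ differed between sites was tested as an interaction over the 12 libraries. It called 0 of 8 members, where 0.806% of 14637 genes were called. Before adjustment 1 member, *Grb10*, was under 0.05 in edgeR's quasi-likelihood test, and DESeq2 called 0. Without descending control replicate 3, 13.5% of 15013 genes and 2 of the 8 members were called. *Cdkn1c* differed by −2.92 ± 0.52 on the log2 scale (SE, adjusted p = 2.37e-04), having fallen in ascending and risen in descending fibroblasts. *Grb10* differed by 0.22 ± 0.06 (adjusted p = 0.0115). The other 6 members did not pass, with log2 differences from −0.74 (*Mest*) to 0.32 (*Peg3*). The 2 site comparisons and the 2 TGFβ comparisons share libraries pairwise and are not independent of each other.

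Neighbours of the members responded to TGFβ in several ways. *Rian* rose in ascending fibroblasts (log2 fold change 0.41, adjusted p = 1.08e-07), and in descending fibroblasts it stood at 0.08 (adjusted p = 0.81) with all libraries and rose by 0.29 (adjusted p = 9.43e-06) without descending control replicate 3, while in ascending fibroblasts *Mirg* did not pass the test (0.16, adjusted p = 0.256). *Begain*, upstream of *Dlk1*, fell at both sites (−0.89 in ascending, adjusted p = 0.00492; −1.58 in descending, adjusted p = 0.0336; −1.76 without descending control replicate 3). In the cluster of *Cdkn1c*, *Slc22a18* (−1.09, adjusted p = 1.94e-08), *Tssc4* (−0.90, adjusted p = 5.32e-10), *Cd81* (−0.77, adjusted p = 2.07e-13) and *Osbpl5* (−0.14, adjusted p = 0.00465) fell in ascending fibroblasts. *Nap1l4* and the noncoding *Kcnq1ot1* did not pass the test there (−0.02 and −0.06). In descending fibroblasts with all libraries the adjusted p of these 6 genes ran from 0.32 to 0.934. On the 5 libraries without descending control replicate 3, *Slc22a18* (−1.06, adjusted p = 5.56e-08), *Cd81* (−0.43, adjusted p = 6.09e-09), *Tssc4* (−0.25, adjusted p = 0.0139) and *Nap1l4* (−0.13, adjusted p = 0.0381) fell, where *Cdkn1c* rose. *Slc22a18* was also higher in ascending than in descending TGFβ libraries (0.85, adjusted p = 2.61e-06), opposite in sign to *Cdkn1c*. *Atp10a*, of the same imprinted domain as *Ndn*, rose at both sites (0.93 in ascending, adjusted p = 8.38e-11; 1.44 in descending, adjusted p = 0.00269; 1.38 without descending control replicate 3), whereas *Ndn* fell in ascending fibroblasts.

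Of 64 other imprinted genes listed, all in the table, 38 were tested between sites in TGFβ libraries, and 7 were higher and 14 lower in ascending fibroblasts, beside the 18.1% and 18.2% of all genes tested. The 3 with the smallest adjusted p in each direction were *Pon3* (log2 fold change 0.55), *Ppp1r9a* (1.65) and *Slc22a18* (0.85) among the higher, and *Atp10a* (−0.84), *Rian* (−0.63) and *Slc38a4* (−1.57) among the lower. The median of the list was −0.13, against 0.00 over all genes tested. TGFβ within ascending fibroblasts raised 10 and lowered 14 of 37 (28.2% and 27.6% of all genes), led upward by *Atp10a*, *Tfpi2* (2.22) and *Igf2r* (0.61). Within descending fibroblasts it raised 2 (*Atp10a* and *Tfpi2*, the latter by 1.55, or 1.67 without descending control replicate 3) and lowered 1 (*Begain*) of 39, where 8.07% of all genes were called. Without descending control replicate 3 it raised 12 and lowered 12 of 40 (26.6% and 26.3% of all genes).

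The genes whose levels followed *H19* most closely were ranked by Pearson's r on log2 CPM over the 12 libraries, which fall into 4 groups and share their normalization, so r is a description. Of 12705 genes, the 5 highest were *Znhit6* (0.985), *Marcks* (0.976), *Synm* (0.975), *Kctd12* (0.974) and *Col6a2* (0.973), and the 3 lowest were *Mical2* (−0.979), *Mast2* (−0.974) and *Map2* (−0.972). *Kctd12*, for example, averaged 20.2 CPM in descending control, 5.13 in ascending control, 3.29 in descending TGFβ and 1.33 in ascending TGFβ libraries, an order shared with *H19*. Without descending control replicate 3 the 5 highest were *Znhit6* (0.987), *Maf* (0.979), *Taok3* (0.971), *Omd* (0.970) and *Marcks* (0.970), and the 3 lowest *H2-T24* (−0.981), *Habp4* (−0.981) and *Plcg2* (−0.980). Among the members, r with *H19* over 12 libraries ran from −0.386 for *Grb10* to 0.765 for *Peg3*, which ranked 822 of the 12705 genes. With descending control replicate 3 left out, *Ndn* was the closest member (0.848, rank 649 of 12678 genes; 0.230 with it), *Peg3* stood at 0.682 (rank 1905) and *Mest* at 0.238 in place of −0.248.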

How the data were processed

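The deposited table gives raw counts per gene symbol for the 12 libraries; the authors made these counts with STAR and featureCounts on mm10 per the labels, with versions, strand and overlap settings not given in the sources used here. Library columns were matched by the library names in the labels. Each pairwise comparison was fitted with edgeR 4.0.16 (quasi-likelihood F-test, TMM, default filterByExpr with a minimum count of 10) on its 6 libraries, the interaction on 12, with Benjamini-Hochberg adjustment over all genes and a threshold of 0.05. DESeq2 1.42.0 was an alternative. The fits were tried on simulated counts with the same spread for all genes and no outlying library. That setting does not cover a library such as descending control replicate 3. The members and gene lists were chosen with earlier results of these data known. The named genes were all members, genes of their clusters averaging at least 1 CPM, and the 3 called genes per direction of each list with the smallest adjusted p. Positions and exon lengths come from GENCODE vM21 (GRCm38), which matched 53753 of 54352 symbols. Promoter windows and microRNAs come from RefSeq (GRCm38.p6); *H19* and *Cdkn1c* have no promoter entry. Alternatives are given in the closing section.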

Additional observations from a re-analysis of the deposited data

Results flagged for a closer look

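The responses of 2 members differed between sites under TGFβ once descending control replicate 3 was left out, by the interaction term in edgeR (quasi-likelihood, adjusted by Benjamini-Hochberg). *Cdkn1c* gave an adjusted p of 2.37e-04 (log2 difference −2.92), against 0.609 with all 12 libraries. *Grb10* gave an adjusted p of 0.0115 (log2 difference 0.22), against 0.411 with all 12 libraries. The same fit called 13.5% of all genes without that library and 0.806% with it. Groups of 3 libraries were not tested for single outlying values.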

How the results depend on the processing

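Among TGFβ libraries, 9 members were called between sites, and 8 to 9 were called when each library was left out in turn. A fit of all 12 libraries together called 3 (*Dlk1*, *Meg3* and *Grb10*) and 1106 of all genes in place of 4963, whereas a fit of the 11 libraries without descending control replicate 3, chosen after seeing the data, called 9 and 4941 of all genes. *H19* and *Cdkn1c* could not be tested under a minimum of 10 counts in every library. For TGFβ within ascending fibroblasts the 12-library fit called 0 members in place of 5 (5 with 11 libraries) and 2338 of all genes in place of 7767 (7878 with 11 libraries), and leaving out 1 library gave 4 to 6. With 1 library left out, *Peg3* ran from −0.13 to 0.06 and *Mest* from −0.25 to 0.41. For TGFβ within descending fibroblasts the 0 calls became 1 in the 12-library fit (*Dlk1*, adjusted p = 0.0421) and 5 with 11 libraries, and leaving out 1 library gave 0 to 5, the 5 without descending control replicate 3. There, leaving out 1 library gave *Ndn* −0.27 to 0.09, *Meg3* −0.09 to 0.07, *Plagl1* −2.20 to 0.11 and *Cdkn1c* −0.63 to 1.42. *Meg3* was 0.01 with no filter on low counts, and with 11 libraries *Meg3* was 0.07, *Plagl1* 0.10 and *Cdkn1c* 1.41. For the interaction, leaving out 1 library gave 0 to 2 calls, with *Dlk1* from −0.11 to 0.10 and *Meg3* from −0.12 to 0.03. Of all genes, TGFβ within descending fibroblasts called 1115, and 7576 without descending control replicate 3; the interaction called 118 and 2022. DESeq2 called 2242 and 419.

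Same-numbered libraries deviated together with r from −0.022 to 0.095 over 18 pairs, and 8 of 12 libraries correlated best with their own number. These values do not settle whether the numbers mark pairs, and the main fits did not pair them. With the replicate block, *Cdkn1c* within descending fibroblasts was 0.46 (−0.19 without it, neither called), and that comparison called 95 genes in place of 1115.

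*Cdkn1c*, *Mest* and *H19* held few counts under TGFβ, and the part of depth in their shifts was not tested. For *Igf2*, low depth and uncounted reads over shared exons cannot be told apart. The cause of the other shifts was not tested either.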

Other observations

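Genes that carry or oppose IGF2 signals were measured beside the members. Of 9, TGFβ raised 7 and lowered 2 (*Igf2bp2*, log2 fold change −0.26, and *Igf1r*, −0.21) in ascending fibroblasts, where 55.8% of all genes were called. *Igf1*, the growth factor related to *Igf2*, rose most, from 10.9 to 20.3 CPM in control to 98.7 to 107 CPM with TGFβ (2.88 ± 0.13, SE, adjusted p = 1.25e-11, edgeR's quasi-likelihood test). In descending fibroblasts *Igf1* was the 1 gene of the list called (2.23, adjusted p = 0.00112), where 8.07% of all genes were called. With descending control replicate 3 left out *Igf1* stood at 2.29, and 5 of the 9 rose and 1 fell, where 52.9% of all genes were called. *Igf2r*, an imprinted receptor that clears IGF2, rose in ascending fibroblasts (0.61, adjusted p = 3.85e-09), as did *Irs2* (0.72, adjusted p = 2.35e-06). Between sites in TGFβ libraries 3 were higher in ascending (*Igf1* 0.68, *Igf2bp1* 1.31 and *Igf1r* 0.22) and 4 lower (*Igf2r* −0.26, *Irs2* −0.36, *Irs1* −0.28 and *Igf2bp3* −0.26), where 36.3% of all genes were called.

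Of 13 tested factors that act on imprinting marks, 4 were higher and 2 lower in ascending than in descending TGFβ libraries, where 36.3% of all genes were called. *Uhrf1* (1.12, adjusted p = 1.44e-10) and *Dnmt1* (0.53, adjusted p = 1.05e-08), which maintain DNA methylation through replication and follow proliferation, were the 2 with the smallest adjusted p, and *Zfp445* (0.29) and *Dnmt3a* (0.31) were also higher. *Tet1* (−1.05, adjusted p = 0.00936) and *Zfp57* (−0.24, adjusted p = 0.0274) were lower. In descending fibroblasts TGFβ lowered *Uhrf1* (−1.33, adjusted p = 0.0188) and *Dnmt1* (−0.54, adjusted p = 0.0418), where 8.07% of all genes were called. These stood, without descending control replicate 3, at −1.12 and −0.51, and *Tet2* was lowered too (−1.01, adjusted p = 6.33e-08), where 52.9% of all genes were called. In ascending fibroblasts it lowered 5, *Tet1*, *Tet2*, *Tet3*, *Dnmt3a* and *Zfp57*, and raised 3, *Trim28*, *Smchd1* and *Zfp445*, where 55.8% of all genes were called, all by edgeR's quasi-likelihood test.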
